A study of Mus musculus with 6 samples.

Results

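Oxidative phosphorylation genes were examined in RNA sequencing libraries of a mouse skin squamous cell carcinoma line in which netrin-1 or its receptor Unc5b had been knocked down. Members were found by gene name, as the Nduf, Sdh, Uqcr, Cyc1, Cox4 to Cox8 and Atp5 genes of the nuclear genome and the Nd, Co, Cytb and Atp genes of the mitochondrial genome. Of 104 names that matched, 6 marked as pseudogenes were dropped and 7 with a mean under 20 were dropped, which left 91 members of 49671 listed genes. Of these, 78 were nuclear encoded and 13 mitochondrial encoded.

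The samples were 2 libraries of the Ntn1 knock-down (KD Ntn1), 2 of the Unc5b knock-down (KD Unc5b) and 2 of the empty vector control. All 6 came from the LKPR EPCAM+ line, whose genotype includes Lgr5CreER, p53fl/fl and Rosa26-YFP+/+. The controls therefore carry the same conditional p53 alleles and YFP reporter as the knock-downs, and the alleles are switched by a Cre driven from Lgr5, a stem cell gene of the hair follicle. Every group had received a puromycin-selected pLKO.1 lentiviral vector, either carrying a hairpin against Ntn1 or Unc5b or empty. Neither the number of hairpins nor their sequence is stated in the sources used here. The control had no hairpin, so the lowering of a target and other effects of a hairpin cannot be told apart. RNA came from day 6 cultures, after a sort that kept live single cells with both YFP and EPCAM. The line is 1 tumour cell culture, and nothing says that the libraries of a group were separate cultures or transductions, so each p-value reflects library-to-library spread alone, and that spread may be technical.

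Oxidative phosphorylation takes place in the inner mitochondrial membrane. Complex I (NADH dehydrogenase) and complex II (succinate dehydrogenase) pass electrons to ubiquinone, complex III passes them to cytochrome c and complex IV (cytochrome c oxidase) passes them to oxygen, while complex V (ATP synthase) uses the resulting proton gradient to make ATP. All of these but complex II are built from subunits of both genomes: a few catalytic core subunits are made inside the organelle from mitochondrial DNA, and the others are transcribed in the nucleus and imported.

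Values are the authors' read numbers, scaled to a total of about 20 M in each library and rounded. The spacing of low values gives estimated depths of 6.54 to 8.41 M reads in KD Ntn1 cells, 8.64 to 9.36 M in KD Unc5b cells and 8.75 to 10.18 M in empty vector cells, and 3 reads correspond to 5.9 to 9.17 in the scaled unit. Ntn1 was at 359 and 431 in KD Ntn1 cells (limma adjusted p = 0.00163) and at 1319 and 771 in KD Unc5b cells (limma adjusted p = 0.0638), against 1566 and 2588 in empty vector cells. Unc5b fell to 419 and 352 in KD Unc5b cells (limma adjusted p = 0.000252) and rose to 2311 and 2382 in KD Ntn1 cells (limma adjusted p = 0.0193), against 1527 and 1573 in empty vector cells. Of the epithelial markers, 7 of 7 reached a mean of 20, with summed values of 58322 to 61359 in KD Ntn1 cells, 46506 to 50957 in KD Unc5b cells and 46408 to 47162 in empty vector cells. Trp63, a basal epithelial factor, was the lowest of them, at 33 and 31 in KD Ntn1 cells and 152 and 88 in KD Unc5b cells, against 94 and 96 in empty vector cells. The basal keratins ran the other way in KD Ntn1 cells. Krt5 was at 1034 and 1027 there and 697 and 776 in KD Unc5b cells, against 287 and 320 in empty vector cells. Krt14 was at 5233 and 4795 in KD Ntn1 cells and 1759 and 3817 in KD Unc5b cells, against 3917 and 1692. Fibroblast markers summed to 177 to 273 in KD Ntn1 cells and 137 to 237 in KD Unc5b cells, against 126 to 130 in empty vector cells. Immune markers summed to at most 6 in any library, with Adgre1 and Lyz2 at 0 throughout. Cdh5, an endothelial cadherin, was at 86 and 113 in KD Ntn1 cells, against 0 and 0 in empty vector cells. Of the other endothelial markers, Pecam1 was between 88 and 107 in all libraries, and Kdr and Tek were at or below 3. Mitf, a melanocyte transcription factor, was at 311 and 284 in KD Ntn1 cells and 299 and 257 in KD Unc5b cells, against 1513 and 1100 in empty vector cells. Of the other melanocyte markers, Pmel was at 48 and 58 in KD Ntn1 cells and 24 and 49 in KD Unc5b cells, against 22 and 30 in empty vector cells, and Dct and Tyrp1 were at 0 in every library. The part of these markers in the results was not tested.

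Nuclear respiratory genes have no single shared promoter element, but binding letters of a few factors recur among them, and the starts of 4 genes that the results turn on are shown here for that reason. RefSeq promoter windows (GRCm38.p6, 250 bases before to 50 after the start) were found by symbol for 62 of the 78 nuclear members. Sequences read 5′ to 3′ on the strand of the gene, and capitals mark any match, on either strand, to the core of nuclear respiratory factor 1 (GCGCATGC) or to the YY1 letters AAGATGGCG. Cox5b lies at chr1:36691237-36691536 (plus strand), Atp5k at chr5:108434350-108434649 (minus strand), Atp5j2 at chr5:145191492-145191791 (minus strand) and Ndufb10 at chr17:24724374-24724673 (minus strand).
Cox5b: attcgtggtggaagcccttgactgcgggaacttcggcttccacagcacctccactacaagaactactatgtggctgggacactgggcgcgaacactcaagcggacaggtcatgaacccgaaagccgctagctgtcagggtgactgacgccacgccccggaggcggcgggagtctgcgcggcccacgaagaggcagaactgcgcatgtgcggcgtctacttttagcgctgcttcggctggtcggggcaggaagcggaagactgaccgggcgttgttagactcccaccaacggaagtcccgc
Atp5k: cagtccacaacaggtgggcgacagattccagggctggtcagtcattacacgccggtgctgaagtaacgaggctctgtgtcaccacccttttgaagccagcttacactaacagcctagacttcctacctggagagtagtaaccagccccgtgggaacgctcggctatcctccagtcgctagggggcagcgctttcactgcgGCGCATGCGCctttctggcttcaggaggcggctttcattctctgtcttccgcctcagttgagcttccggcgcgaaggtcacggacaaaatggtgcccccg
Atp5j2: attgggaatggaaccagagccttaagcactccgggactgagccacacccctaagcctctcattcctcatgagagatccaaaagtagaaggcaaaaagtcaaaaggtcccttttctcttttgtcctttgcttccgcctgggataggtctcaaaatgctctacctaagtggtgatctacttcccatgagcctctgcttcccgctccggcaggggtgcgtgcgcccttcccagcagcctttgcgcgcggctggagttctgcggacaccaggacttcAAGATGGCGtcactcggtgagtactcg
Ndufb10: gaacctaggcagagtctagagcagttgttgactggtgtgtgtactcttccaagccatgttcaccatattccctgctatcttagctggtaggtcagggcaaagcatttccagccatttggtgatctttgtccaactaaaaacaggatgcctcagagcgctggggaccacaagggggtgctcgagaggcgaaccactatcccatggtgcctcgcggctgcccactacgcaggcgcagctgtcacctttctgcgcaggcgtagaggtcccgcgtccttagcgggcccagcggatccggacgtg
Atp5k holds overlapping matches of the respiratory factor core on both strands, and Atp5j2 holds the YY1 letters once.

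The search covered 5 sets of letters on both strands in the 67 windows of the members and in 32851 windows of all genes. The respiratory factor core was in 14.9% of member windows and 2.71% of all windows. The YY1 letters were in 10.4% and 1.4%, the GABP letters CCGGAAGT in 7.5% and 3.89%, the letters TCAAGGTCA of oestrogen-related receptors in 3.0% and 0.42%, and the Sp1 core GGGCGG in 37.3% and 35.7%. Cox5b and Ndufb10 held none of the 5 in these windows. A match is only a match of letters and says nothing of binding in these cells.

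A pair of sequences bears on how the mitochondrial genes can be read. The transcript of mt-Nd4l, a complex I core subunit at chrM:9877-10173, is identical over its first 294 bases to Gm10222, an annotated copy of mitochondrial DNA on nuclear chromosome 1. The shared stretch, from the GENCODE M21 transcripts of GRCm38, is in lower case because no base differs.
mt-Nd4l and Gm10222: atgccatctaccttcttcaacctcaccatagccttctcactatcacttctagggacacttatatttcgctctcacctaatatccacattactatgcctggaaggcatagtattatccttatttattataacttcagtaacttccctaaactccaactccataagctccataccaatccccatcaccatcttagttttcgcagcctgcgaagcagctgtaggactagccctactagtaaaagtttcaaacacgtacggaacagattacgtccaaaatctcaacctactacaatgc

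Mitochondrial encoded genes fell into a high and a low set that differed by over an order of magnitude per exon length in every group. Per kilobase of exon, the mean level over 6 libraries was 67220 for mt-Co1, the catalytic subunit of complex IV, and 51295 for mt-Nd1. It was 36552 for mt-Nd2, 29356 for mt-Nd6, 25929 for mt-Nd5 and 15876 for mt-Nd4, all core subunits of complex I, and 32674 for mt-Cytb, the cytochrome b of complex III. The other 6 genes were far lower, with 939 for mt-Nd3 and 607 for mt-Nd4l of complex I, 198 for mt-Co2 and 94.4 for mt-Co3 of complex IV, and 146 for mt-Atp6 and 143 for mt-Atp8 of complex V. The lowest of the 7 high genes was 16.9 times the highest of the 6 low genes. The mitochondrial genome is transcribed as long molecules that are then cut, so neighbouring genes on it come from the same primary transcript.

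**Figure D1:**
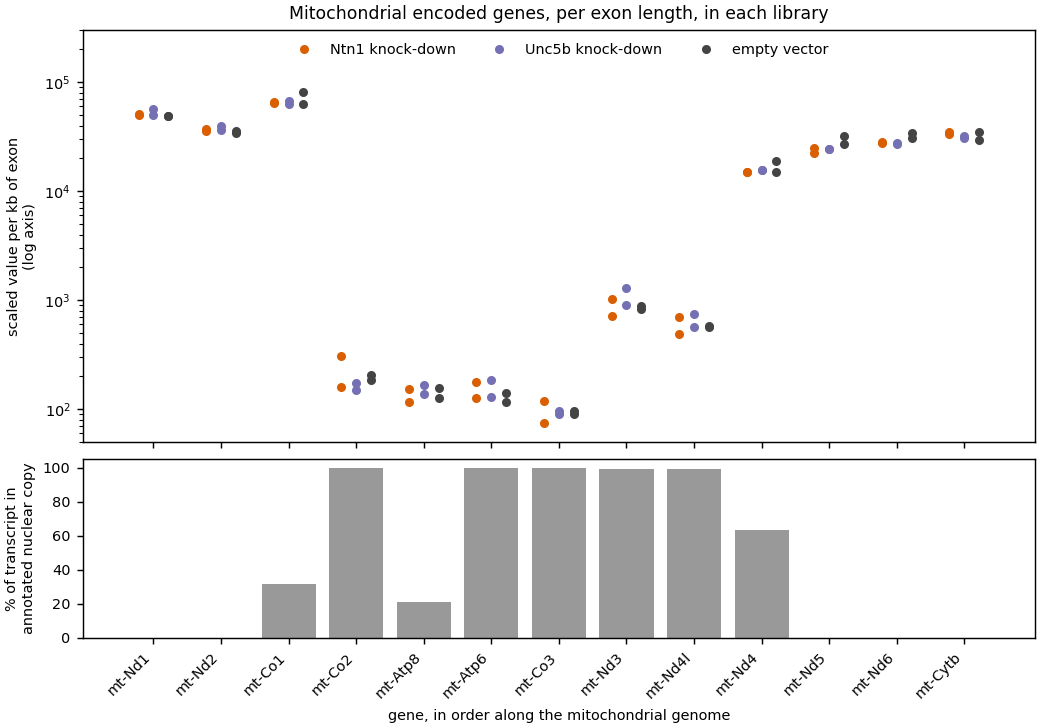
Upper panel: level of each mitochondrial encoded gene per kilobase of exon (scaled value, log axis) in the 2 Ntn1 knock-down, 2 Unc5b knock-down and 2 empty vector libraries, in order along the mitochondrial genome. Lower panel: percent of the transcript found in an annotated nuclear copy at 98% identity or more. The 5 genes with 90% or more of their transcript in such a copy all lie in the low set.

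Nuclear copies covered the low set most. At 98% identity or more, an annotated gene on nuclear chromosome 1 held 99.9% of mt-Co3 (Gm28437), 99.6% of mt-Co2 (Gm28661), 99.6% of mt-Atp6 (Gm10925), 99.1% of mt-Nd3 (Gm28438) and 99.0% of mt-Nd4l. It held 63.6% of mt-Nd4 (Gm28439), the lowest of the high set, 31.3% of mt-Co1 (Gm29216) and 21.1% of mt-Atp8. The last was 43 bases, the length of the overlap of mt-Atp8 with mt-Atp6. No copy was found for mt-Nd1, mt-Nd2, mt-Nd5, mt-Nd6 or mt-Cytb. Only annotated transcripts were searched, so copies outside them would be missed. The copies themselves were low, with Gm10925 at 100 and 135 in KD Ntn1 cells, 96 and 76 in KD Unc5b cells and 77 and 105 in empty vector cells. How reads that match more than 1 place were counted is not given in the sources used here, and the part of these copies in the low values was not tested. The values of the 6 low genes are therefore uncertain. Those of mt-Nd6, encoded on the opposite strand from its neighbours, are uncertain as well, because the strand setting is not given.

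None of the 13 mitochondrial genes was called changed by limma in any comparison. At an unadjusted p under 0.05, 1 of 13 differed for KD Ntn1 cells against empty vector cells, 1 for KD Unc5b cells against empty vector cells and 0 for KD Ntn1 against KD Unc5b cells. Over all 15330 genes tested these numbers were 4610, 4122 and 3509. mt-Co1 was at 100836 and 98869 in KD Ntn1 cells and 103399 and 97998 in KD Unc5b cells, against 96621 and 125409 in empty vector cells. Both knock-downs lay between the empty vector libraries. mt-Nd5 was at 45175 and 41302 in KD Ntn1 cells and 44713 and 44873 in KD Unc5b cells, against 49552 and 58146 in empty vector cells, so both knock-downs lay below. Its log2 fold change was -0.31 for KD Ntn1 cells against empty vector cells (limma adjusted p = 0.119). Without empty vector library 1 it was -0.43 and passed (limma adjusted p = 0.0468). mt-Nd6 was likewise at 14264 and 14702 in KD Ntn1 cells and 14476 and 14115 in KD Unc5b cells, against 16089 and 17769 in empty vector cells, with log2 fold changes of -0.22 and -0.24 that did not pass.

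mt-Nd1 was at 48278 and 49148 in KD Ntn1 cells and 48154 and 54751 in KD Unc5b cells, against 47280 and 46926 in empty vector cells, so both knock-downs lay above by amounts that did not pass. mt-Cytb was at 40063 and 38354 in KD Ntn1 cells and 35086 and 36754 in KD Unc5b cells, against 34091 and 39925 in empty vector cells. mt-Nd2 was between 35186 and 41299 and mt-Nd4 between 20653 and 25893 over all libraries. In mt-Nd4 each knock-down overlapped the empty vector, and KD Ntn1 cells, at 20910 and 20711, lay just below KD Unc5b cells, at 21578 and 21518. For the 7 high genes the log2 fold changes ran from -0.31 to 0.09 in KD Ntn1 cells and from -0.26 to 0.13 in KD Unc5b cells, each against empty vector cells. The median half-width of their 95% intervals was 0.26, so changes below about that size could not be resolved. For the 6 low genes it was 0.67. Among those, mt-Nd3 was at 354 and 248 in KD Ntn1 cells, 314 and 449 in KD Unc5b cells and 305 and 290 in empty vector cells, and mt-Co2 was at 212 and 110, 103 and 118, and 140 and 128 in the same groups. mt-Nd4l was between 147 and 220, mt-Co3 between 58 and 93 and mt-Atp6 between 79 and 126 over all libraries. mt-Atp8, at 24 to 34 over all libraries, stood just above the filter.

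Summed over members, nuclear encoded transcripts were lowest in KD Ntn1 cells and highest in KD Unc5b cells, with no overlap between the 3 groups, whereas the mitochondrial sum overlapped. The nuclear members held 0.415% and 0.397% of the library total in KD Ntn1 cells and 0.478% and 0.506% in KD Unc5b cells, against 0.453% and 0.453% in empty vector cells. The mitochondrial members held 1.54% and 1.51% in KD Ntn1 cells and 1.53% and 1.56% in KD Unc5b cells, against 1.5% and 1.76% in empty vector cells. The ratio of the mitochondrial to the nuclear sum was 3.71 and 3.81 in KD Ntn1 cells, 3.2 and 3.09 in KD Unc5b cells and 3.31 and 3.89 in empty vector cells. KD Ntn1 cells lay above KD Unc5b cells in this ratio. The empty vector libraries enclosed both KD Ntn1 values, while both KD Unc5b values lay below both empty vector values. With 2 libraries a group, permuting labels exactly gives at best a p of 1 in 3, and these sums are given without a test. In such bulk samples, fewer cells of a type and less RNA per cell cannot be told apart.

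**Figure D2:**
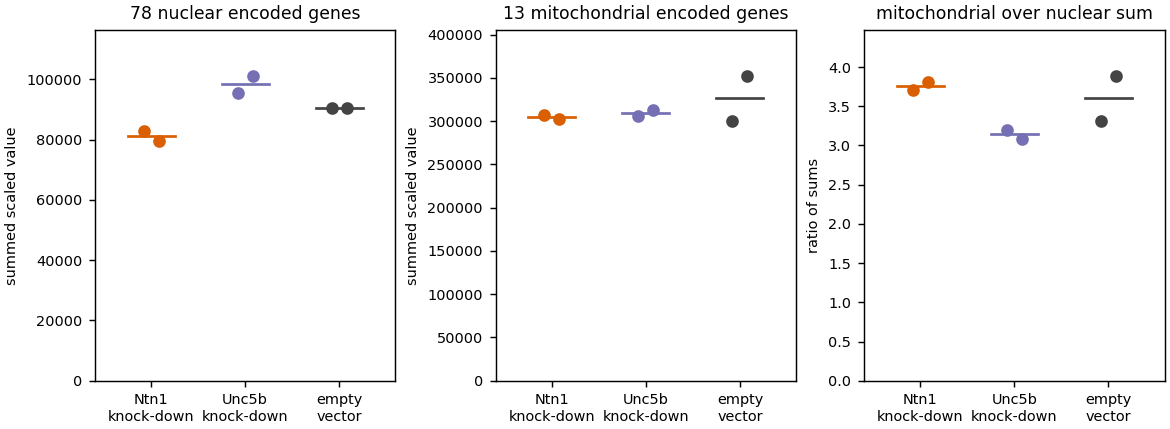
Summed scaled value of the 78 nuclear encoded genes (left) and the 13 mitochondrial encoded genes (middle), and the ratio of the sums (right), in each library. Points are libraries and bars are group means of 2 libraries. The nuclear sum does not overlap between groups. In the ratio, the empty vector, at 3.31 and 3.89, encloses KD Ntn1 cells and lies above KD Unc5b cells.

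Other parts of the transcript pool also differed in KD Ntn1 cells. Cytoplasmic ribosomal protein genes held 1.68% and 1.72% of the total in KD Ntn1 cells and 2.02% and 2.14% in KD Unc5b cells, against 2.07% and 2.22% in empty vector cells. The non-coding genes Gm26917 and Gm42418 held 3.14% and 3.60% in KD Ntn1 cells and 2.34% and 2.67% in KD Unc5b cells, against 2.65% and 2.28% in empty vector cells. Their part in the nuclear sum was not tested.

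Levels of the nuclear genes spanned 2 orders of magnitude per exon length, from 22.8 for Ndufa4l2 to 2679 for Cox6a1, with a median of 455. By complex, the highest per kilobase were Ndufa2 (1010), an accessory subunit of complex I, and Sdhd (622.5), a membrane anchor of complex II. Uqcrb (1110), which helps bind ubiquinone in complex III, Cox6a1 (2679), an accessory subunit of complex IV, and Atp5a1 (2668), the alpha subunit of the ATP synthase, led the others. Exon length counts all annotated isoforms, so genes with long rare isoforms appear lower on this scale.

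**Figure D3:**
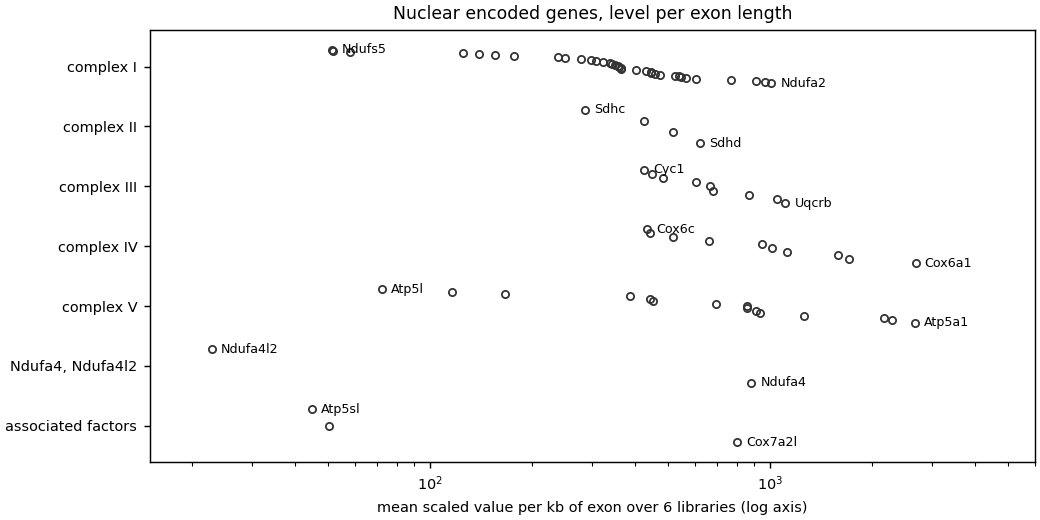
Mean level per kilobase of exon over 6 libraries (scaled value, log axis) of each nuclear encoded gene, by complex. Each circle is a gene and the lowest and highest of each complex are named, from Ndufa4l2 at 22.8 to Cox6a1 at 2679.

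Tissue isoforms of complex IV showed the common, non-muscle forms. Cox6a2, the striated muscle form, and the testis forms Cox8c and Cox7b2 were listed at 0 in all 6 libraries, while Cox6a1, Cox8a and Cox7b were among the members. The muscle form Cox7a1 was at 24 and 12 in KD Ntn1 cells, 26 and 14 in KD Unc5b cells and 16 and 7 in empty vector cells, below the filter at a mean of 16.5. Cox4i2, the isoform linked to low oxygen, was at 12 and 15, 15 and 7, and 24 and 34 in the same groups, just below the filter at a mean of 17.8. Cox6b2 and Cox8b had means of 1.5 and 2.2. Cox4i1 was at 2095 and 2137 in KD Ntn1 cells and 2507 and 2532 in KD Unc5b cells, against 2504 and 2966 in empty vector cells. Cox6a1 was between 1729 and 2166 and Cox6b1 between 563 and 761 over all libraries. Cox8a was at 973 and 868 in KD Ntn1 cells and 1259 and 1269 in KD Unc5b cells, against 1024 and 960 in empty vector cells, and none of these 4 passed in any comparison. Ndufa4 was at 1065 and 979 in KD Ntn1 cells and 1218 and 1543 in KD Unc5b cells, against 1287 and 1216 in empty vector cells, and did not pass either. The nearest nuclear gene above the filter was Ndufa4l2, a hypoxia-inducible relative of the complex IV subunit Ndufa4. It was at 31 and 34 in KD Ntn1 cells and 28 and 32 in KD Unc5b cells, against 14 and 11 in empty vector cells. Both knock-downs lay above the empty vector, by 1.10 and 1.00 on the log2 scale, and neither passed (limma adjusted p = 0.0706 and 0.107). Ndufs5, the next nuclear gene above the filter, was between 30 and 65 in all libraries. Of its transcript 46.9% lies in an annotated copy, BC002163, which was at 97 to 139, so the Ndufs5 values are uncertain. The 3 genes for the identical subunit c of the ATP synthase rotor had 934 (Atp5g3), 444 (Atp5g2) and 116 (Atp5g1) per kilobase, and none of them passed in any comparison.

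For KD Ntn1 cells against empty vector cells, nuclear respiratory genes tended to lower values and a few passed. A linear model over all 15330 genes with a mean of at least 20 was used, on log2(value + 5), and a gene was called at a limma adjusted p under 0.05. Of 78 nuclear members 0 rose and 6 fell, and of all 91 members 6 were called (6.59%). Over all genes tested 15.1% were called, 8.04% higher and 7.06% lower, so the share of members called lay below that of all genes tested. The median log2 fold change was -0.22 over nuclear members, 0.01 over mitochondrial members and -0.02 over all genes tested. Of the nuclear members 63 had a negative value (80.8%), against 51.6% of all genes tested. Both Ntn1 libraries lay below both empty vector libraries for 44 of 78 nuclear members, against 30.2% of all genes tested.

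**Figure D4:**
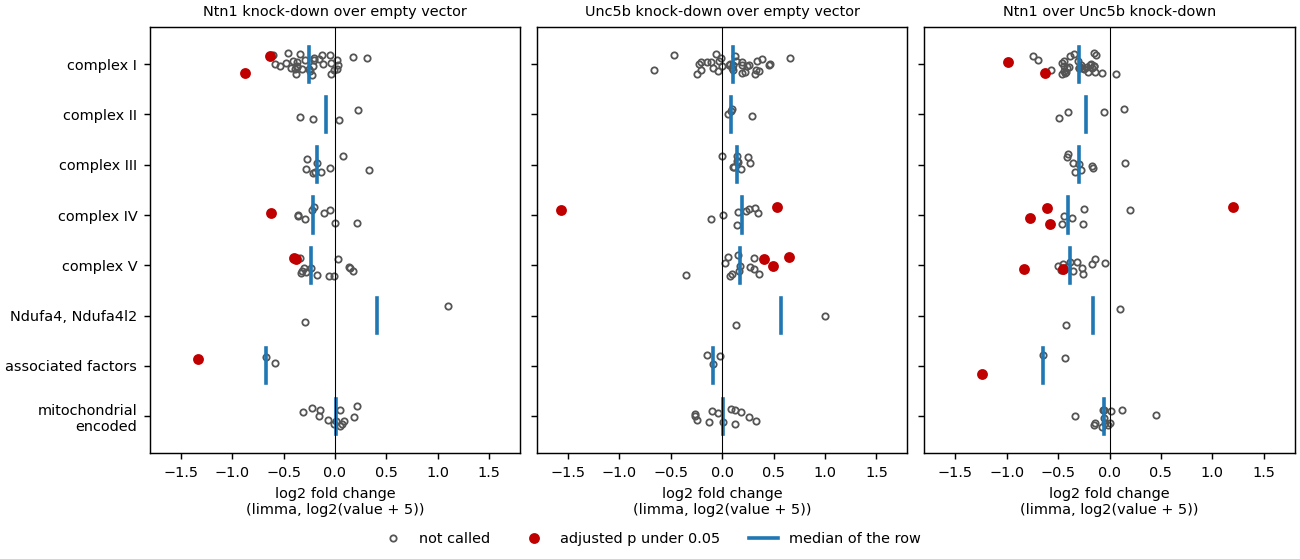
Log2 fold change (limma, log2(value + 5)) of each member in the 3 comparisons, by complex, with the mitochondrial encoded genes in the bottom row. Open circles did not pass, filled circles had an adjusted p under 0.05, and bars are row medians. Nuclear complexes I to V have negative medians for KD Ntn1 cells and positive ones for KD Unc5b cells, each against empty vector cells, while the mitochondrial medians are 0.01 in both.

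Atp5sl, the gene for a distal assembly factor of complex I (also named Dmac2), fell most in KD Ntn1 cells. It was at 69 and 64, against 181 and 169 in empty vector cells, 2.63-fold lower (log2 fold change -1.33 ± 0.23 SE, limma adjusted p = 0.00638). Despite its symbol it encodes no subunit of the ATP synthase. Ndufb10, an accessory subunit of the complex I membrane arm, was at 300 and 223, against 452 and 505 (-0.87 ± 0.19, limma adjusted p = 0.019). Ndufv2, an iron-sulphur subunit of the arm that oxidises NADH, was at 768 and 804, against 1195 and 1248 (-0.63 ± 0.12, limma adjusted p = 0.0106). For each of these genes the groups did not overlap. On GRCm38 the genes lie at chr7:25619414-25625551 (Atp5sl, plus strand), chr17:24722060-24724478 (Ndufb10, minus) and chr17:66078638-66101559 (Ndufv2, minus).

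Cox6c, an accessory subunit of complex IV, was at 1041 and 1141 in KD Ntn1 cells, against 1541 and 1845 in empty vector cells (-0.63 ± 0.13, limma adjusted p = 0.0163). In complex V, Atp5c1, the gamma subunit that turns inside the catalytic head, was at 3895 and 3516, against 4874 and 4866 (-0.40 ± 0.11, limma adjusted p = 0.0457). Atp5f1, subunit b of the stator stalk, was at 2934 and 2807, against 3697 and 3754 (-0.38 ± 0.10, limma adjusted p = 0.0432). The falls in complexes IV and V were thus 1.3- to 1.55-fold, with both knock-down libraries below both controls. With either KD Ntn1 library left out, 0 of the 6 passed (limma adjusted p = 0.0553 to 0.321), and without empty vector library 2 the count was 3. Atp5f1 shares 43.4% of its transcript with the copy Gm12231, which was at 14 to 26 in all libraries.

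For KD Unc5b cells against empty vector cells, 1 subunit gene fell about 3-fold and 4 others rose by less than 1.6-fold. Of 78 nuclear members 4 rose and 1 fell, and 5 of 91 members were called (5.49%), against 12.0% of all genes tested (5.9% higher and 6.07% lower). The median log2 fold change was 0.14 over nuclear members, 0.01 over mitochondrial members and 0.04 over all genes tested. Of the nuclear members 20 had a negative value (25.6%), against 46.1% of all genes tested. Both Unc5b libraries lay above both empty vector libraries for 33 of 78 nuclear members, against 28.7% of all genes tested, and below for 9 of 78, against 23.2%. This comparison and that of KD Ntn1 cells use the same empty vector libraries, so their values for a gene are not independent.

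Cox5b (ENSMUSG00000061518, chr1:36691449-36693681, plus strand of GRCm38), a zinc-binding subunit of complex IV, was the called member with the largest change. It was at 346 and 322 in KD Unc5b cells and 780 and 768 in KD Ntn1 cells, against 914 and 1088 in empty vector cells. KD Unc5b cells lay below all other libraries, 3.0-fold below the empty vector (log2 fold change -1.56 ± 0.15, limma adjusted p = 0.000647). The call held under all 17 alternatives, with adjusted p between 4.81e-06 and 0.0119. Gm11273, an annotated copy on chromosome 13 that holds 45.1% of the Cox5b transcript at 99.2% identity, was at 36 and 25 in KD Unc5b cells and 83 and 70 in KD Ntn1 cells, against 92 and 78 in empty vector cells. Reads of Cox5b and of this copy cannot be fully told apart. The other 9 subunit genes of complex IV had log2 fold changes between -0.11 and 0.53, and of these Cox7c passed.

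Atp5k, subunit e of the membrane part of the ATP synthase, rose to 985 and 996 in KD Unc5b cells, against 617 and 640 in empty vector cells (0.65 ± 0.13, limma adjusted p = 0.0151). Cox7c, a small complex IV subunit, was at 750 and 746, against 503 and 530 (0.53 ± 0.14, limma adjusted p = 0.0411). Of the Cox7c transcript 32.9% lies in annotated copies, of which Gm10012 was at 9 to 24 in all libraries. Atp5j2, subunit f, was at 1951 and 2001, against 1327 and 1484 (0.49 ± 0.12, limma adjusted p = 0.0335), and Atp5a1 was at 9368 and 10004, against 7765 and 6866 (0.41 ± 0.11, limma adjusted p = 0.0495). In each the groups did not overlap. Of the 4 genes 3 belong to complex V, which holds 15 of the 78 nuclear members, while 5.9% of all genes tested were called higher. In complex V 14 of 15 had a positive value. Atp5c1 went the other way, at 3646 and 4009, against 4874 and 4866 in empty vector cells (-0.35 ± 0.11, limma adjusted p = 0.0789). With median-of-ratios scaling 2 members were called higher and 2 lower, and with upper quartile scaling 3 higher and 2 lower. With either Unc5b or either KD Ntn1 library left out, Cox5b alone was called (limma adjusted p of the others 0.0533 to 0.228), as it was in a fit of these 2 groups only. Without empty vector library 1 the count was 3.

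**Figure D5:**
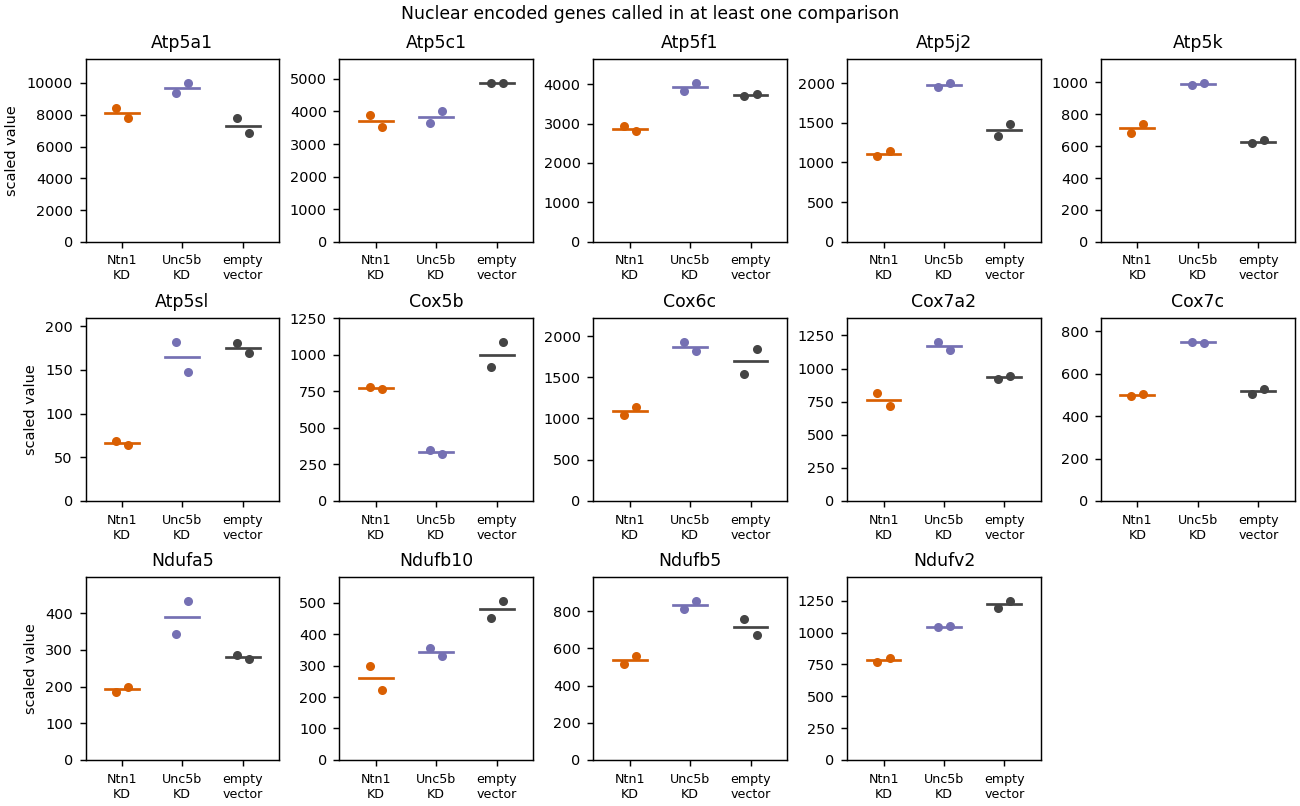
Scaled value in each library of the 14 nuclear encoded genes called in at least 1 of the 3 comparisons, on axes that start at 0. Points are libraries and bars are means of 2. Cox5b is lowest in KD Unc5b cells (346 and 322), and KD Ntn1 cells (780 and 768) also lie below the empty vector (914 and 1088). Atp5sl is low in KD Ntn1 cells alone (69 and 64).

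The knock-downs were also compared directly, which leaves the empty vector libraries out of the difference. In KD Ntn1 against KD Unc5b cells, 1 nuclear member rose and 8 fell, and 9 of 91 members were called (9.89%), against 7.1% of all genes tested. Genes called higher made up 4.15% and genes called lower 2.95% of all genes tested. The median log2 fold change was -0.35 over nuclear members, -0.05 over mitochondrial members and -0.05 over all genes tested. Of the nuclear members 72 had a negative value (92.3%), against 55.3% of all genes tested. Both Ntn1 libraries lay below both Unc5b libraries for 64 of 78, against 31.3% of all genes tested, and above for 3, against 24.4%. In complex V 15 of 15 had a negative value, with a median of -0.39, and in complex I 34 of 35, with a median of -0.30.

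Ndufa5, an accessory subunit of complex I, was at 185 and 199 in KD Ntn1 cells, against 344 and 433 in KD Unc5b cells (-0.99 ± 0.19, limma adjusted p = 0.0193). Atp5j2 was at 1075 and 1144, against 1951 and 2001 (-0.83 ± 0.12, limma adjusted p = 0.00719), the smallest adjusted p among the falls. Atp5sl was at 69 and 64, against 182 and 148 (-1.24 ± 0.23, limma adjusted p = 0.017). Cox6c was at 1041 and 1141, against 1928 and 1814 (-0.78 ± 0.13, limma adjusted p = 0.0132).

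Ndufb5, of the complex I membrane arm, was at 518 and 560 in KD Ntn1 cells, against 812 and 855 in KD Unc5b cells. Cox7a2, the widely expressed form of a complex IV subunit, was at 816 and 716, against 1201 and 1137, and Cox7c at 495 and 505, against 750 and 746. Atp5f1 was at 2934 and 2807, against 3817 and 4030. These 4 fell by 0.62, 0.61, 0.58 and 0.45 on the log2 scale, with limma adjusted p between 0.0306 and 0.043. Cox5b ran the other way, at 780 and 768 in KD Ntn1 cells, against 346 and 322 in KD Unc5b cells (1.20 ± 0.15, limma adjusted p = 0.00391). In all 9 called genes the groups did not overlap. With KD Ntn1 library 1 or 2 left out 0 of the 9 passed. Without KD Unc5b library 1 the count was 2 and without library 2 it was 1, while without either empty vector library it was 15.

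Set side by side, the mitochondrial median log2 fold change exceeded the nuclear one by 0.24 for KD Ntn1 cells and fell short of it, at -0.13, for KD Unc5b cells, each against empty vector cells. It exceeded it by 0.30 for KD Ntn1 against KD Unc5b cells. With the 7 high mitochondrial genes alone, an alternative chosen after the data were seen, these differences were 0.08, -0.24 and 0.30. Without KD Ntn1 library 1 the first was 0.03. The pooled SD between libraries of a group was 0.10 on this scale. With a library of a compared group left out, the difference between the knock-downs was 0.29 to 0.34. The difference of KD Ntn1 cells from the empty vector then ran from 0.03 to 0.31. Scalings, blocks and a fit of the compared groups only move both medians about alike or not at all, so they test little here.

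Genes that read out, build and feed the respiratory chain were described from 6 further lists. Of 35 genes for transcription, replication and RNA handling of the mitochondrial genome, 1 rose and 2 fell in KD Ntn1 cells against empty vector cells, with a list median of 0.04. The called share of this list was 8.57%, against 15.1% of all genes tested, and it was 2.86%, against 12.0%, for KD Unc5b cells and 5.71%, against 7.1%, between the knock-downs. Tfam, which packages mitochondrial DNA and starts its transcription, was at 471 and 566 in KD Ntn1 cells, against 802 and 812 in empty vector cells (-0.64 ± 0.15, limma adjusted p = 0.0237). Top1mt, the mitochondrial topoisomerase, was at 150 and 113, against 240 and 213 (-0.77 ± 0.22, limma adjusted p = 0.0494), and Fastk, which protects the mt-Nd6 transcript, was at 1888 and 1908, against 1142 and 1319 (0.63 ± 0.13, limma adjusted p = 0.0168). In KD Unc5b cells 1 rose and 0 fell, with a median of 0.21: Tfb2m, the mitochondrial transcription factor that melts the promoter, was at 365 and 452, against 267 and 215 in empty vector cells (0.75 ± 0.19, limma adjusted p = 0.042). In KD Ntn1 against KD Unc5b cells 0 rose and 2 fell, Top1mt (-1.30) and Fastkd2 (-0.91), an RNA-binding protein of the mitochondrial ribosome.

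Of 49 assembly factors tested, 0 rose and 1 fell in KD Ntn1 cells against empty vector cells, namely Uqcc1, needed to make cytochrome b, at 554 and 520, against 763 and 789 (-0.53 ± 0.14, limma adjusted p = 0.0361). In KD Unc5b cells 1 rose and 0 fell. This was Coa5, a factor for complex IV, at 2992 and 3227, against 2360 and 1880 in empty vector cells (0.56 ± 0.14, limma adjusted p = 0.0322). Coa5 was the 1 factor that fell in KD Ntn1 against KD Unc5b cells (-0.95 ± 0.14, limma adjusted p = 0.00684), with 0 rising. In each comparison 2.04% of the list was called, against 15.1%, 12.0% and 7.1% of all genes tested. The medians of the list were -0.05, 0.23 and -0.26 in these comparisons.

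Mitochondrial ribosomal proteins translate the 13 mitochondrial encoded subunits. Of 78 tested, 0 rose and 3 fell in KD Ntn1 cells, 0 rose and 2 fell in KD Unc5b cells, each against empty vector cells, and 0 rose and 3 fell between the knock-downs. These were 3.85%, 2.56% and 3.85% of the list, against 15.1%, 12.0% and 7.1% of all genes tested. Mrpl33 fell in all 3, at 832 and 826 in KD Ntn1 cells and 1225 and 1202 in KD Unc5b cells, against 1631 and 1722 in empty vector cells. Mrps31 (-0.79) and Mrps14 (-0.59) were the others in KD Ntn1 cells, Mrpl43 (-0.65) in KD Unc5b cells, and Mrps14 (-0.73) and Mrpl37 (-0.59) between the knock-downs. The list medians were -0.07, 0.19 and -0.26, and 70 of 78 genes had a negative value between the knock-downs (89.7%), against 92.3% of the nuclear respiratory members and 55.3% of all genes tested.

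Of 33 genes of the tricarboxylic acid cycle and pyruvate entry, which supply NADH and succinate to the chain, 2 rose and 5 fell in KD Ntn1 cells against empty vector cells (21.2% called, against 15.1% of all genes tested), and the list median was -0.08. Pcx, which makes oxaloacetate from pyruvate, was at 102 and 135, against 592 and 903 (-2.59 ± 0.30, limma adjusted p = 0.00123). Pdk1, which switches off pyruvate dehydrogenase, was at 430 and 489, against 1065 and 1182 (-1.28 ± 0.14, limma adjusted p = 0.000911). Mpc1, a part of the mitochondrial pyruvate carrier, was at 64 and 43, against 122 and 103 (-1.03 ± 0.29, limma adjusted p = 0.0483), and Suclg2, a subunit of succinyl-CoA synthetase, was at 1213 and 899, against 529 and 505 (1.01 ± 0.16, limma adjusted p = 0.00511).

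In KD Unc5b cells 2 genes of this list rose and 3 fell against empty vector cells (15.2% called, against 12.0% of all genes tested), with a median of 0.02. Pcx was at 261 and 155 in KD Unc5b cells (-1.84 ± 0.30, limma adjusted p = 0.00699) and Suclg2 at 1336 and 1341 (1.36 ± 0.16, limma adjusted p = 0.00168). Pdp2, a phosphatase that activates pyruvate dehydrogenase, was at 348 and 160, against 599 and 615 (-1.34 ± 0.31, limma adjusted p = 0.0269), and Mdh2, mitochondrial malate dehydrogenase, at 5758 and 6652, against 4058 and 3139 (0.79 ± 0.15, limma adjusted p = 0.0128). Between the knock-downs 0 rose and 2 fell, Pdk1 (-0.96) and Pdha1 (-0.49), the alpha subunit of pyruvate dehydrogenase (6.06% called, against 7.1%), with a median of -0.10.

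Of 21 electron carriers and entry routes, 2 rose in KD Ntn1 cells and 3 in KD Unc5b cells, each against empty vector cells, and none fell. These were 9.52% and 14.3% of the list, against 15.1% and 12.0% of all genes tested. Coq2, an enzyme of ubiquinone synthesis, was at 611 and 566 in KD Ntn1 cells and 616 and 651 in KD Unc5b cells, against 407 and 357 in empty vector cells. Prodh, which passes electrons from proline to the chain, was at 55 and 40 and at 53 and 37 in the same knock-downs, against 12 and 11. Coq5, another enzyme of ubiquinone synthesis, was at 519 and 528 in KD Unc5b cells, against 342 and 322 (0.65 ± 0.15, limma adjusted p = 0.028). Between the knock-downs 0 of 21 were called by limma, with 5 at an unadjusted p under 0.05, against 3509 of all 15330 genes tested. The list medians were -0.03, 0.09 and -0.11.

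Of 20 regulators of mitochondrial biogenesis, 2 rose and 0 fell in KD Ntn1 cells against empty vector cells. Ppard, a nuclear receptor that activates fatty acid oxidation genes, was at 2872 and 2682, against 1289 and 1077 (1.23 ± 0.13, limma adjusted p = 0.0009), and Myc was at 6023 and 5905, against 4219 and 3263 (0.68 ± 0.14, limma adjusted p = 0.0154). In KD Unc5b cells 0 rose and 3 fell. These were Tfeb, a regulator of lysosomes, at 24 and 19, against 67 and 55 in empty vector cells (-1.32), Prkaa2, a catalytic subunit of AMP-activated kinase, at 92 and 113, against 220 and 206 (-1.03), and Gabpb2, a partner of the GABP factor, at 1718 and 1638, against 2594 and 2744 (-0.67 ± 0.11, limma adjusted p = 0.0068). Between the knock-downs 1 rose, Ppard (0.86 ± 0.13, limma adjusted p = 0.00971), and 0 fell. The calls were thus 2, 3 and 1 of 20 genes in these comparisons, against 15.1%, 12.0% and 7.1% of all genes tested. The list medians were 0.03, 0.06 and -0.03, near those of all genes tested. Of the called genes of these 6 lists, 14 of 18 lost the call for KD Ntn1 cells without library 1 and 13 without library 2 of that group. For KD Unc5b cells 10 of 15 were lost without library 1 and 13 without library 2 of that group, with 11 lost without either KD Ntn1 library, and between the knock-downs 9 of 9 were lost without either Ntn1 library.

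The other transcripts of the mitochondrial genome were not called in any comparison. The 2 ribosomal RNAs held 0.485% and 0.494% of the total in KD Ntn1 cells and 0.477% and 0.456% in KD Unc5b cells, against 0.386% and 0.538% in empty vector cells, so KD Ntn1 cells lay above KD Unc5b cells and the empty vector libraries spanned both. Of 20 mitochondrial transfer RNA genes tested, limma called 0 in any comparison, and 0 had an unadjusted p under 0.05. Of these 20, 16 had a negative value in KD Ntn1 against KD Unc5b cells (80.0%), against 55.3% of all genes tested. Both Ntn1 libraries lay below both Unc5b libraries for 5 of 20, against 31.3% of all genes tested.

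Libraries of a group were close for most members. The median gap between the 2 libraries was 0.11 on the log2 scale for nuclear members in KD Ntn1 cells, 0.10 in KD Unc5b cells and 0.16 in empty vector cells. The gap was largest in empty vector cells for Cox7a2l, which encodes a factor that joins complexes III and IV, at 983 and 1850. It was at 899 and 893 in KD Ntn1 cells and 1432 and 1031 in KD Unc5b cells. Exons of 28 of the 78 nuclear members overlap another annotated gene, most of all Atp5o (47.9% of exon bases), Ndufb6 (39.0%) and Ndufa13 (30.0%), and their values are uncertain to that extent. Near-identical copies hold part of the transcript of 17 of the 78, and 50% or more of it in 4, Uqcrb (62.8%) among them. Values of these genes are uncertain as well.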

How the data were processed

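RNA had been extracted with a column kit and made into libraries with the Ovation Solo system, per the labels' protocols. Per the submitters' processing notes, STAR, Picard and HTSeq and the GRCm38 (mm10) build were used. The sources used here give neither their settings and versions nor how strand, duplicates and multiple matches were handled. The deposited values are a score: integers with a library total near 20 M, hence the authors' scaled and rounded values and not raw counts. No count model was fitted. Depth was estimated from the step between low values, and the floor of 3 reads covers counting error only. The 95% intervals of log2 fold changes are from limma and reflect the spread between libraries.

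Values were tested on log2(value + 5) over 15330 genes with a mean of at least 20, with limma 3.58.1 (R 4.3.3), a variance trend, 3 groups of 2 libraries in 1 fit, 3 residual and 5.33 prior degrees of freedom, 2-sided, with Benjamini-Hochberg adjustment over all genes tested. Log2 fold changes on this scale understate changes of low genes, and fold values are ratios of group means. The fit was tested on simulated data with 200 changed genes. Gene positions and exon lengths are from GENCODE M21. Copies were found with BLAST 2.17.0 at 98% identity or more against all GENCODE transcripts.

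Members and lists were chosen with earlier results of these data known. Named genes were all mitochondrial members, the called nuclear members (up to 10 a comparison by size), the highest nuclear gene per complex by length, those next to the filter, isoform families, and up to 4 called genes per further list. Alternatives were other pseudocounts (1 and 20), no filter or a mean of 100, other scalings, no variance trend, a replicate block, a fit of the compared groups only and leaving out each library. Part of the shared genotype and 1 marker gene are not reported here.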

Additional observations from a re-analysis of the deposited data

How the results depend on the processing

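Counts of called members depended on the processing. Under 17 alternatives no called gene changed sign, but most of these leave the fold change as it was or nearly so. Directions were put to the test mainly by leaving out a library of a compared group. For KD Ntn1 cells against empty vector cells (6 called) the count was 2 with no filter and 0 to 9 with 1 library left out. For KD Unc5b cells (5 called) it was 2 with no filter, 3 if variances had no trend, 1 in a fit of the 2 groups only and 1 to 4 with 1 library left out. For KD Ntn1 against KD Unc5b cells (9 called) it was 2 with no filter, 4 without the trend, 15 in a fit of these 2 groups only and 0 to 15 with 1 library left out. Where a group is left with 1 library, that library is assumed to vary like the others.

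The labels state no pairing of libraries by number. Deviations of same-numbered libraries correlated at -0.169 for the 2 knock-downs and at 0.16 for KD Ntn1 cells and the empty vector. For KD Unc5b cells and the empty vector the value was -0.45. Such values cannot settle whether libraries were handled in pairs. With the replicate block the counts were 4, 2 and 4. With the Unc5b numbers crossed, a block chosen after seeing the data, they were 19, 10 and 28. Calls over all genes were then 4151, 3585 and 2617, against 2314, 1835 and 1088 in the main fit. The main fit holds no term for variation shared between libraries of different groups, and its part was not tested.

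The mitochondrial median log2 fold change minus the nuclear median was recomputed with 1 library left out. It ranged from 0.03 to 0.31, from -0.18 to -0.08 and from 0.29 to 0.34 in the 3 comparisons. The first 2 differences moved to 0.08 and -0.24 with the 7 high genes alone. Against a total without the 1% highest genes, the mitochondrial share was 2.11% in KD Ntn1 cells, 2.11% in KD Unc5b cells and 2.22% in empty vector cells, and the nuclear share 0.562%, 0.67% and 0.616%. Without rRNA-annotated genes the mitochondrial share was 1.56% and 1.57% in the knock-downs and the nuclear share 0.461% in empty vector cells. With all matched names the nuclear share in empty vector cells was 0.453%. The nuclear median kept its sign in every comparison under every scaling and pseudocount tried, and no scaling moved the median of all genes by over 0.1. Depth of 6.54 to 10.18 M reads limits genes near the filter most. The cause of the lost calls was not tested.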
